A study of Mus musculus with 6 samples.

Results

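Immediate early and activation response genes are transcribed within minutes of a stimulus, without new protein synthesis, and were looked for here by symbol in a table of counts from sorted hippocampal microglia. The list held 10 genes: Btg2, Zfp36, Zfp36l1, Zfp36l2, Klf6, Klf2, Atf3, Jun, Junb and Fos. Of these, 9 were among the 11881 genes of the deposited table. For Klf2, a Kruppel-like factor best known from endothelial cells and lymphocytes, only sequences were analysed here, not counts. Of the 9, 8 passed the filter on low counts and were tested, and Fos did not pass it.

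The 6 libraries came from male mice at postnatal days 17 to 21, 1 mouse each. In 3 of them the label gives the genotype Mll5+/-, in which 1 copy of Mll5, now called Kmt2e, is disrupted, and in 3 it gives WT. The sort gate in both groups was CD11b-positive, CD45-low cells, which microglia share with few other brain cells. The labels number the animals, and replicate numbers within each genotype were assigned here in the order of those numbers. The sources used here do not say how the Mll5 allele was made.

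Microglia are the macrophages of the brain, and signals at their surface run through MAP kinases to serum response factor, CREB and AP-1, the dimers formed by JUN, FOS and ATF proteins. The ZFP36 family and BTG2 act later, by bringing a deadenylase to mRNAs so that they are degraded. Tissue dissociation and sorting are known to induce several of these genes in microglia, so their covariation over libraries was described along with the comparison of genotypes.

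The libraries labelled Mll5+/- held between 21075570 and 28053173 counts, and those labelled WT between 23884734 and 29730400. At these depths 3 counts correspond to between 0.104 and 0.142 CPM, the unit used below for counts scaled to a library total adjusted by TMM. Kmt2e had 648, 298 and 513 CPM in libraries labelled Mll5+/- and 480, 378 and 688 CPM in those labelled WT, with a 95% interval of the log2 fold change from -0.79 to 0.63. These levels overlapped between genotypes and no lowering was detected, so the genotypes are given as the labels have them. Microglial markers were abundant in all 6 libraries, for example Tmem119 with between 197 and 232 CPM. The library labelled Mll5+/- replicate 3 had the lowest total, the highest mitochondrial share (3.55%, against 1.88% to 2.90% in the other 5) and the lowest median correlation with the other libraries (r = 0.77 over 10832 genes, against 0.80 to 0.83).

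None of the 8 tested genes differed between genotypes beyond the spread between mice. Atf3 and Junb had the largest fold changes of the 8, with higher means in libraries labelled Mll5+/-, but their levels overlapped between genotypes. For Zfp36l1, Zfp36l2 and Klf6 the highest library had at most 1.43 times the CPM of the lowest, and Jun had nearly equal means. Fos was at 0 counts in all 3 libraries labelled WT and was counted mostly in a single library labelled Mll5+/-.

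The elements that the ZFP36 proteins bind are AU-rich stretches of 3′ untranslated regions, and the mRNAs studied here carry them too. The longest 3′ untranslated region of each gene in GENCODE M21 was searched for the pentamer ATTTA and for the nonamer TTATTTATT, on the mRNA strand, each nonamer holding a pentamer. All 10 genes held a pentamer, as did 71.0% of 11560 genes of the table, and the median density was 2.99 per kilobase against 1.38 per kilobase over those genes. The nonamer was found in 4 of the 10, and in 8.89% of the 11560. The 4 sites are shown because 3 of them lie in mRNAs of the ZFP36 family itself and the other in that of Fos. Capitals mark the nonamer.
Zfp36: tatgacgactTTATTTATTgtattaagat
Zfp36l1: aactgttggaTTATTTATTttagaaattc
Zfp36l2: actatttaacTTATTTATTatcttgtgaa
Fos: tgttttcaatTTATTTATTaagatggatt
A match is a description of these letters only, and binding was not measured.

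Zfp36 (tristetraprolin), on chromosome 7 from 28076209 to 28079678 (mm39), encodes the family member most known for the decay of Tnf mRNA. It had 6.31, 6.32 and 10.8 CPM in libraries labelled Mll5+/- and 6.77, 5.77 and 6.84 CPM in those labelled WT. The library labelled Mll5+/- replicate 3 stood above the other 5, and the genotypes overlapped. The log2 fold change was 0.27 ± 0.698 (SE; unadjusted p = 0.706 in edgeR), with a 95% interval from -1.31 to 1.86. Without that library it was -0.04.

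Zfp36l1, on chromosome 12 from 80154528 to 80159787, encodes a paralog that also works in quiescent cells. It had 644, 695 and 738 CPM in libraries labelled Mll5+/- and 606, 573 and 795 CPM in those labelled WT. The highest and the lowest library both carried the label WT. Its log2 fold change was 0.07 ± 0.178 (SE; unadjusted p = 0.692 in edgeR), and the 95% interval ran from -0.33 to 0.48.

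Zfp36l2, on chromosome 17 from 84491359 to 84495375, is the third paralog and had 381, 419 and 357 CPM in libraries labelled Mll5+/-, against 348, 296 and 422 CPM in those labelled WT. As for Zfp36l1, the library labelled WT replicate 3 was the highest and WT replicate 2 the lowest. The log2 fold change was 0.12 ± 0.192 (SE; unadjusted p = 0.557 in edgeR), with an interval from -0.32 to 0.55. Both paralogs had a log2 fold change below 0, of -0.03 and -0.01, when WT replicate 2 was left out.

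Btg2, on chromosome 1 from 134002908 to 134006858, encodes an antiproliferative adaptor of the CCR4-NOT deadenylase. It had 887, 929.9 and 517 CPM in libraries labelled Mll5+/- and 776, 939 and 867 CPM in those labelled WT. The library labelled Mll5+/- replicate 3 lay below the other 5, and the other 2 of its genotype lay within the range of those labelled WT. The log2 fold change was -0.15 ± 0.231 (SE; unadjusted p = 0.545 in edgeR), and 0.07 without that library.

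The gene of Klf6, a Kruppel-like zinc finger factor of macrophage activation, lies on chromosome 13 from 5911481 to 5920393. Klf6 mRNA stood at 221, 193 and 206 CPM in libraries labelled Mll5+/- and 178, 155 and 207 CPM in those labelled WT. The library labelled WT replicate 3 reached into the range of the libraries labelled Mll5+/-, while the other 2 labelled WT lay below it. Its log2 fold change was 0.20 ± 0.203 (SE; unadjusted p = 0.353 in edgeR), with a 95% interval from -0.26 to 0.66. It was 0.09 without WT replicate 2 and 0.31 without WT replicate 3.

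**Figure D1:**
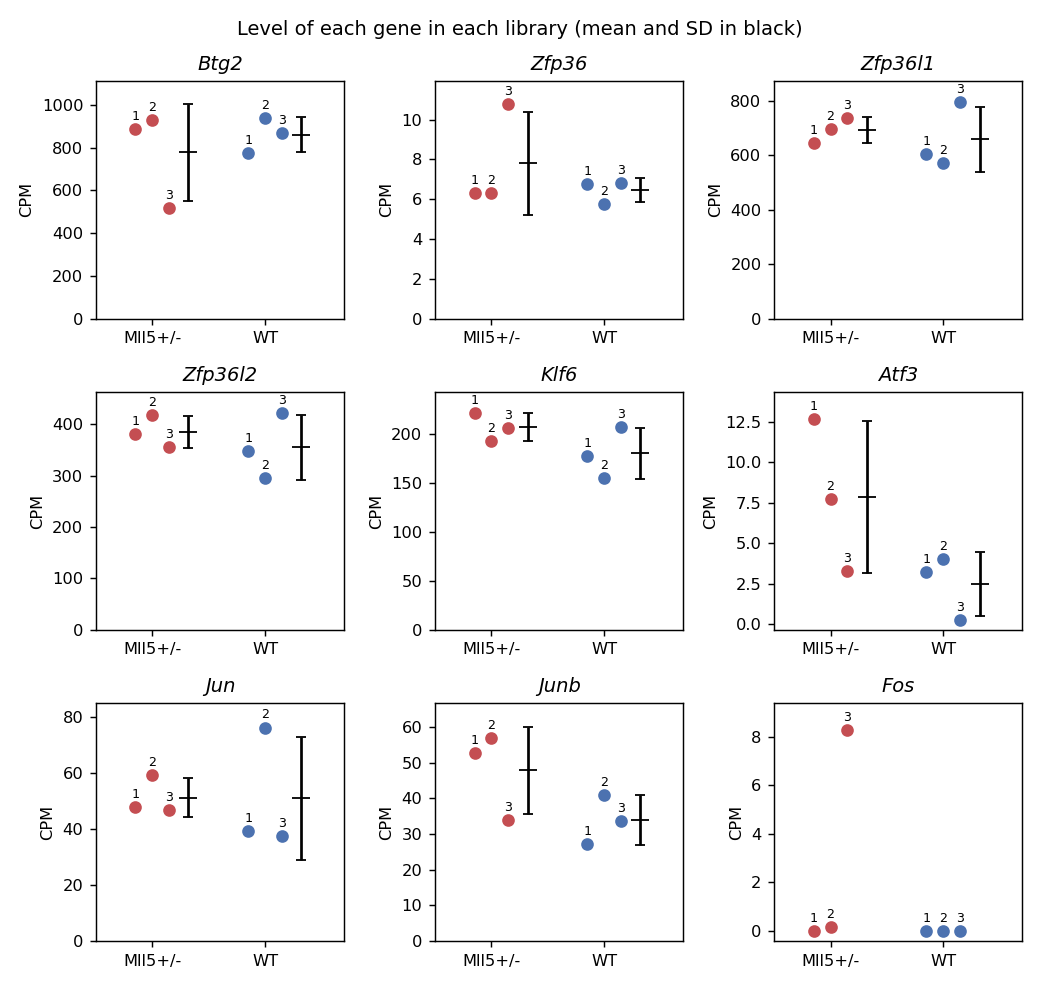
Level in CPM (y axis) of each of the 9 genes in each library, with libraries labelled Mll5+/- in red and WT in blue, points numbered by replicate, and the mean ± SD of 3 libraries in black (left out for Fos). The genotypes overlap in every panel, and Btg2, Zfp36 and Fos each have the library labelled Mll5+/- replicate 3 apart from the other 5.

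Of the AP-1 genes, Junb, on chromosome 8 from 85703539 to 85705347, encodes a JUN protein that restrains c-JUN activity in many settings. It had 52.5, 57.0 and 34.0 CPM in libraries labelled Mll5+/- and 27.1, 40.9 and 33.7 CPM in those labelled WT. The first 2 libraries labelled Mll5+/- were the highest, and replicate 3 lay among those labelled WT. The mean was 47.9 ± 12.2 against 33.9 ± 6.91 CPM (SD, n = 3 each), with a log2 fold change of 0.50 ± 0.355 (SE; unadjusted p = 0.194 in edgeR) and an interval from -0.31 to 1.30.

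Jun, on chromosome 4 from 94937271 to 94940459, had 47.8, 59.2 and 46.7 CPM in libraries labelled Mll5+/- and 39.3, 76.3 and 37.4 CPM in those labelled WT. Its highest and its lowest libraries both carried the label WT. The means were 51.2 ± 6.95 and 51.0 ± 21.9 CPM (SD, n = 3 each), and the log2 fold change was 0.01 ± 0.367 (SE; unadjusted p = 0.985 in edgeR).

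Atf3, a stress-induced partner of JUN, lies on chromosome 1 from 190902493 to 190950236 and varied most of the 8 tested genes. It had 321, 220 and 69 counts in libraries labelled Mll5+/- (12.7, 7.72 and 3.26 CPM) and 77, 104 and 8 counts in those labelled WT (3.22, 4.002 and 0.278 CPM). The highest library had 45.6 times the CPM of the lowest. Replicate 3 labelled Mll5+/- lay below the highest library labelled WT. The log2 fold change was 1.66 ± 1.16 (SE; unadjusted p = 0.189 in edgeR), and its interval, from -0.99 to 4.30, held both a loss and a large gain.

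Fos, on chromosome 12 from 85520664 to 85524047, had 0, 4 and 175 counts in libraries labelled Mll5+/- (0, 0.140 and 8.27 CPM), against 0 in each of the 3 labelled WT. A library labelled WT with 0 counts still allows up to between 0.104 and 0.125 CPM (3 counts). Nearly all its counts thus came from 1 mouse, and no fold is given. In DESeq2, which was run without the low-count filter, Fos had no p-value. A gene with at least 50 counts in a library and at most 4 in the other 5 together was rare. There were 6 such genes in the library labelled Mll5+/- replicate 3, Fos included, and between 2 and 6 in each of the others, limits that were chosen after the Fos counts were seen. Batf, another AP-1 subunit, named for its pattern after its values were seen, had 0, 12 and 62 counts in libraries labelled Mll5+/- and no count in those labelled WT. It lies near Fos, on chromosome 12 from 85733443 to 85755861.

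RefSeq promoters (GRCm38.p6, 250 bases before to 50 after the start) were found for 9 of the 10 genes, Klf2 included and Zfp36l2 not. They were searched on both strands for the serum response element by its name, the CREB motif TGACGT, the AP-1 site TGANTCA, the TATA box TATAAA, the GC box GGGCGG, the NF-kB site by its name and the ETS core CCGGAA. Those of Fos, Btg2 and Zfp36 are shown, 1 for its near absence from the counts and the other 2 for their opposed levels over libraries. Capitals mark every match to the first 4 of these motifs. The windows are chr12:85473640-85473939 on the plus strand for Fos, chr1:134079106-134079405 on the minus strand for Btg2 and chr7:28379179-28379478 on the minus strand for Zfp36, each written along its gene.
Fos: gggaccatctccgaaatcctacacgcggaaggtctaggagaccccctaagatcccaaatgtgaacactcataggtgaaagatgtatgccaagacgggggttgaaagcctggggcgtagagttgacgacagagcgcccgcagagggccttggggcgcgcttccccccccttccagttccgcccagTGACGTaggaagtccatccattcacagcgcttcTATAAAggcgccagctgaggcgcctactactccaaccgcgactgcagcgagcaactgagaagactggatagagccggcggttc
Btg2: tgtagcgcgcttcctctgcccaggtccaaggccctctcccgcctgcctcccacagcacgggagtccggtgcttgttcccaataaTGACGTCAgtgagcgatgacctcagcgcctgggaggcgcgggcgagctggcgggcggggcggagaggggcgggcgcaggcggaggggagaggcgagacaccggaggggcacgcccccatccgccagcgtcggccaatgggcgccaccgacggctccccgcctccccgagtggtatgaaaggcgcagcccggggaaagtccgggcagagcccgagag
Zfp36: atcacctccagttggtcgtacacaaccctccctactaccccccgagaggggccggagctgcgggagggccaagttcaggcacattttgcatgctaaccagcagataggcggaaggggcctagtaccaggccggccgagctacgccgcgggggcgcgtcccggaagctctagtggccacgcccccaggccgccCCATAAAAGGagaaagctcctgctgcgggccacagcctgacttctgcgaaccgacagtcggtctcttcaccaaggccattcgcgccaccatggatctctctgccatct
The Fos window held a CREB motif from -66 and a TATA box from -33, counted from the start. In that of Btg2, CREB motifs on both strands overlapped from -166 and -164. CREB motifs stood in 3 of the 9 promoters (Btg2, Atf3 and Fos) and in 7.51% of 32851 promoters of the same length. The serum response element stood in that of Zfp36 alone, from -58, and in 1.63% of all. Elements more than 250 bases before the start, of Fos as of the other genes, lay outside the search. The AP-1 site was found in that of Zfp36l1 alone (7.81% of all). The TATA box letters were found in those of Junb, Zfp36l1 and Fos (13.6% of all). In Zfp36l1 they lay from -29, but in Junb from 1, at the annotated start itself. The GC box was found in 7 of the 9 promoters, all but those of Junb and Zfp36l1 (35.7% of all), and in Zfp36 its match shared a base with the serum response element. The NF-kB site was found in those of Btg2, Atf3 and Zfp36 (20.7% of all), and the ETS core in that of Zfp36 alone (14.9% of all).

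Scaled by the length of the transcript with the longest 3′ untranslated region, the order of mean levels in libraries labelled Mll5+/- was Btg2 (284 CPM per kilobase), Zfp36l1 (232), Zfp36l2 (109), Klf6 (48.9), Junb (26.4), Jun (16.1), Atf3 (3.97), Zfp36 (2.80) and Fos (1.33). In the libraries labelled WT the same scale gave Btg2 314, Zfp36l1 220.2, Zfp36l2 100.7, Klf6 42.6, Junb 18.7, Jun 15.99, Zfp36 2.32, Atf3 1.26 and Fos 0 CPM per kilobase. Ranges over the 6 libraries overlapped between Btg2 and Zfp36l1, between Junb and Jun, and among Atf3, Zfp36 and Fos. They did not overlap between Zfp36l1 and Zfp36l2, between Zfp36l2 and Klf6, between Klf6 and Junb or between Jun and Atf3. The genes that encode mRNA decay factors thus stood at both ends of the order, with Zfp36 near its bottom.

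Of the 8 tested genes, 0 passed an adjusted p of 0.05 in edgeR (smallest adjusted p 0.9995 among them and among all genes), as did 0% of all 10832 tested genes. None had an unadjusted p under 0.05 in edgeR, DESeq2 or limma-voom, where edgeR gave 312 of all tested genes (2.88%). DESeq2 called 29 of 11377 genes with an adjusted p (0.255%), with 565 under an unadjusted p of 0.05, and none of the 9 genes was among the 29. limma-voom called 0 genes, with 459 under an unadjusted p of 0.05. Levels without overlap between genotypes were found for 0 of the 8, against 9.32% of all tested genes (4.68% higher and 4.64% lower in Mll5+/-). The log2 fold change was above 0 for 7 of the 8, Btg2 being the exception, against 51.8% of all, and the median was 0.16 against 0.02. Jun, at 0.01, was below 0 in 5 of its 15 alternatives. The fitted biological coefficient of variation, the spread between mice beyond counting error, lay between 31.5% for Zfp36l1 and 96.6% for Atf3, against a common value of 80.4%. In bulk counts, fewer cells of a type and less RNA per cell cannot be told apart.

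**Figure D2:**
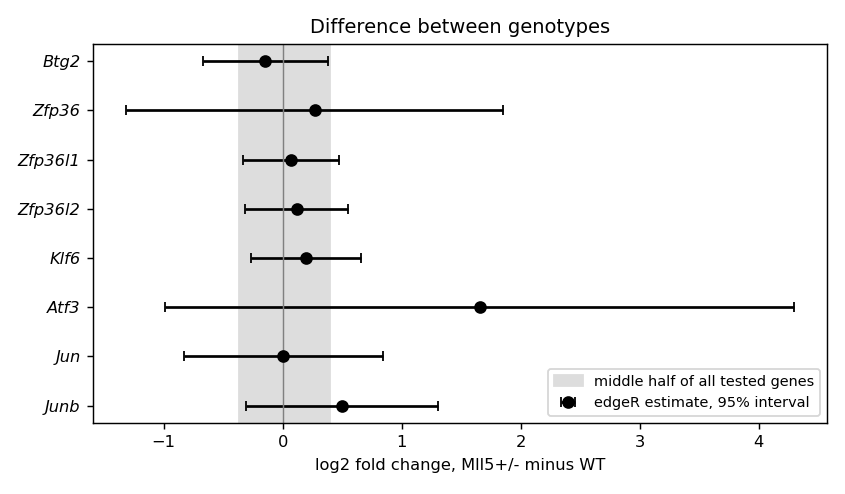
edgeR log2 fold change of the 8 tested genes (x axis, Mll5+/- minus WT), with 95% intervals as bars and the middle 50% of all tested genes shaded. Each interval holds 0, and that of Atf3 is the widest.

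Without the library labelled Mll5+/- replicate 3, the levels of Atf3 and Junb did not overlap between genotypes (2 of 8, against 18.8% of all tested genes with 2 libraries against 3). Without WT replicate 3, those of Zfp36l1, Zfp36l2 and Klf6 did not (3 of 8, against 20.1%), and without WT replicate 2, that of Jun did not (1 of 8, against 17.2%). None of the 8 had an unadjusted p under 0.05 in edgeR in any of the 6 fits that left out a library.

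Covariation over the 6 libraries was then described for the 28 pairs of the 8 tested genes, on log2 CPM. The genes did not move as a block: Pearson's r was positive in 15 pairs and negative in 13, with a median of 0.07. None passed after adjustment over the 28 pairs (exact permutation test, two-sided, smallest adjusted p = 0.117 for r and 0.408 for rho). With 720 permutations, a single pair could not pass for rho, and for r only at the smallest possible p. Points of a pair share a library and its depth.

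Btg2 and Zfp36 had the strongest relation and moved in opposite directions (r = -0.98, exact permutation p = 0.00417, adjusted p = 0.117; rho = -0.94, exact permutation p = 0.0167, adjusted p = 0.408). Without the 2 libraries farthest from the median of Btg2, replicate 3 labelled Mll5+/- and replicate 1 labelled WT, r was -0.85. Within genotypes, after their means were subtracted, it was -0.98. Over the left-out libraries it ran from -0.99 to -0.76.

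Sets of 3 genes were seen in the pairs and were chosen after their values were known, so they carry no test. Atf3, Jun and Junb, the AP-1 genes, had r between 0.50 and 0.60 in their 3 pairs. Zfp36l1, Zfp36l2 and Klf6 had r between 0.70 and 0.77 in theirs. Between the sets, 7 of 9 pairs were negative, the lowest being Klf6 with Jun at -0.61. Values without the 2 libraries farthest from the median of the first gene rest on 4 libraries each. In the set of Zfp36l1, Zfp36l2 and Klf6 they were lower, between 0.21 and 0.39. In the AP-1 set r was then 0.93 for Atf3 with Junb, 0.87 for Jun with Junb and 0.45 for Atf3 with Jun. Between the sets r then ran from -0.48 for Klf6 with Jun to 0.94 for Zfp36l2 with Jun, a pair at -0.54 over all 6. The negative relation between the sets thus did not hold without those libraries. Within genotypes, after their means were subtracted, r between the sets ran from -0.99 for Zfp36l1 with Atf3 to 0.06 for Zfp36l2 with Junb. It was below 0 in every pair but the last.

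**Figure D3:**
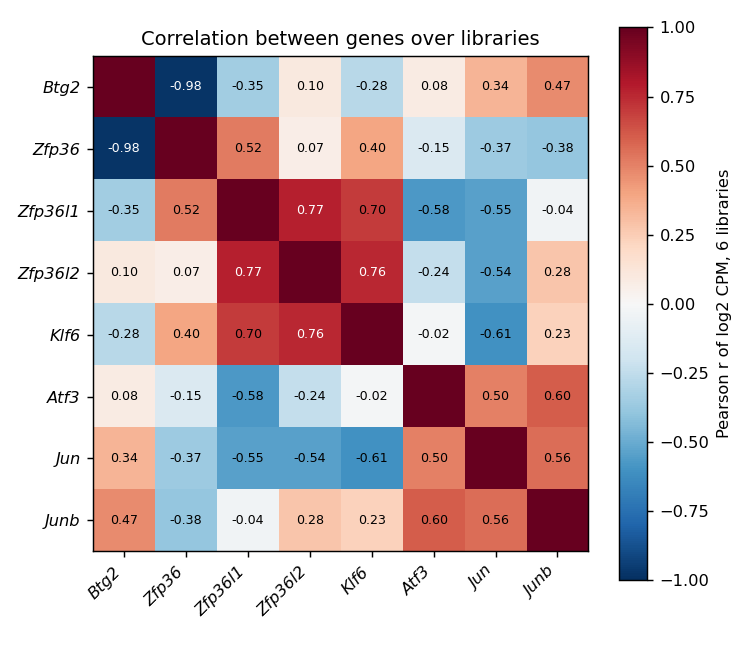
Pearson's r of log2 CPM over 6 libraries for each pair of the 8 tested genes, red for positive and blue for negative. Btg2 with Zfp36 is the darkest blue cell at -0.98, and the genes do not form a single red block.

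The mean log2 deviation of the 8 genes from their own 6-library means was 0.31, 0.29 and -0.02 in libraries labelled Mll5+/- and -0.17, 0.00 and -0.41 in those labelled WT. The first 2 libraries labelled Mll5+/- were the highest and WT replicate 3 the lowest, with overlap between genotypes. Much of this was Atf3, whose log2 range over libraries was 5.20, where those of the other 7 lay between 0.472 and 1.07. Without Atf3, a choice made after the values were seen, the levels were 0.08, 0.16 and -0.02 in libraries labelled Mll5+/- and -0.19, -0.03 and 0.00 in those labelled WT.

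Genes known for handling had other orders of libraries, though the heat shock genes shared the lowest one, WT replicate 3. Without Atf3, the lowest for the other 7 genes was WT replicate 1 (-0.19). The 10 tested heat shock genes had mean log2 deviations of 0.15, -0.14 and 0.19 in libraries labelled Mll5+/- and 0.06, 0.25 and -0.51 in those labelled WT. The highest was WT replicate 2 and the lowest WT replicate 3. Hsp90ab1, a constitutive chaperone, had 731, 654 and 621 CPM in libraries labelled Mll5+/- and 723, 637 and 548 CPM in those labelled WT, while Hspa1a and Hspa1b, the inducible members, had at most 15 counts in any library. The 17 tested microglial genes raised by dissociation had deviations of -0.23, 0.29 and -0.11 in libraries labelled Mll5+/- and -0.20, 0.26 and -0.01 in those labelled WT. Mitochondrially encoded genes had -0.32, -0.53 and 0.42 in libraries labelled Mll5+/- and 0.13, 0.00 and 0.29 in those labelled WT. The 23 tested genes of the list of other immediate early genes had 0.45, 0.22 and -0.65 in libraries labelled Mll5+/- and -0.08, 0.30 and -0.23 in those labelled WT. Their highest library, Mll5+/- replicate 1, was that of the 8 genes, and their lowest was Mll5+/- replicate 3. WT replicate 3 was also lowest for other AP-1 and ATF subunits (-0.51), other Kruppel-like factors (-0.31) and mRNAs bound by ZFP36 (-0.71). The part of handling in the levels of the 8 genes was not tested.

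**Figure D4:**
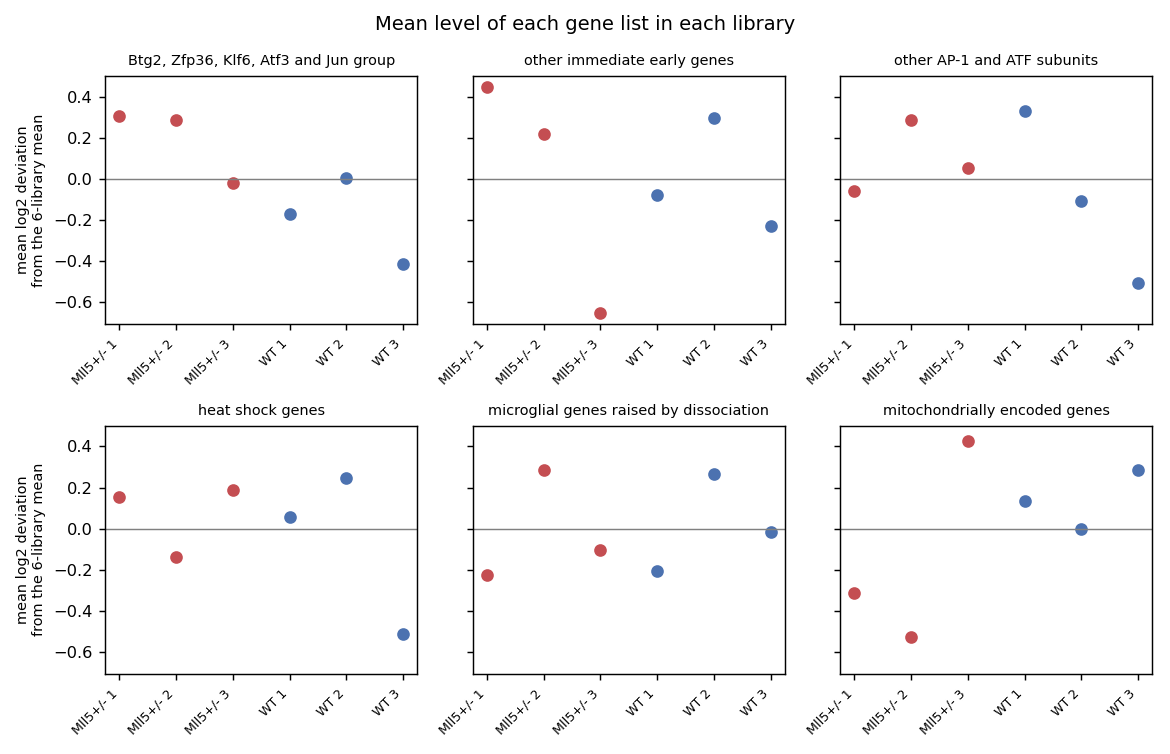
Mean log2 deviation of each list's tested genes (y axis) in each of the 6 libraries (x axis, Mll5+/- in red, WT in blue). The 8 genes studied are highest in libraries labelled Mll5+/- replicates 1 and 2 (0.31 and 0.29), while heat shock genes peak in WT replicate 2 (0.25). Both are lowest in WT replicate 3, though without Atf3 the level of the other 7 genes is 0.00 there (not drawn).

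By a rule of likeness, genes outside the list with a mean of at least 10 CPM were ranked by r with this mean level over 6 libraries. As Atf3 had by far the widest log2 range of the 8 (5.20), the ranking follows it more than the other genes. The first were Etv3, an ETS repressor (r = 0.99), Fxr2, an RNA-binding protein (0.99), Hhat (0.97), Cep135 (0.97) and Kdelr1 (0.97). All were at their lowest in the library labelled WT replicate 3, as Atf3 was, and 36 of 6829 genes (0.527%) had r over 0.9. For Fos alone the first were Cbfa2t3 (0.99), Gripap1 (0.99), Prkacb (0.98), Dnajc14 (0.98) and Rrp1 (0.98), all at their highest in the library labelled Mll5+/- replicate 3, and 70 genes (1.02%) had r over 0.9.

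Among the other immediate early genes, 23 were tested, 12 with a log2 fold change above 0 and 11 below (median 0.12, against 0.02 over all tested genes). None passed the adjustment in edgeR, and 1 had an unadjusted p under 0.05, in the direction of lower levels (0 higher; 1.36% higher and 1.52% lower among all tested genes). This was Sgk1, a kinase gene induced by serum and glucocorticoids, with 154, 127 and 54.4 CPM in libraries labelled Mll5+/- and 192, 199.8 and 252 CPM in those labelled WT. Srf, which encodes serum response factor, had 17.1, 18.3 and 16.4 CPM in libraries labelled Mll5+/- and 5.18, 12.4 and 9.19 CPM in those labelled WT, without overlap (log2 fold change 0.95 ± 0.549, SE; unadjusted p = 0.118 in edgeR). Btg1, a paralog of Btg2 and the list's gene of most counts, had 849, 1108 and 820.2 CPM in libraries labelled Mll5+/- and 845, 632 and 876 CPM in those labelled WT.

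The other AP-1 and ATF subunits had 11 tested members, 5 above 0 and 6 below (median -0.04), and 0 with an unadjusted p under 0.05 in edgeR in either direction. Levels without overlap were found for 2 of the 11, both higher in Mll5+/- (4.68% higher among all tested genes). Atf4, the effector of the integrated stress response, had 171, 163 and 121 CPM in libraries labelled Mll5+/- and 144, 204 and 213 CPM in those labelled WT. Maf, a macrophage identity factor, had 4128, 4777 and 2731 CPM in libraries labelled Mll5+/- and 3589, 4008 and 4396 CPM in those labelled WT. Mafk had 0, 0.492 and 0 CPM in libraries labelled Mll5+/- and 2.72, 2.62 and 0 CPM in those labelled WT.

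Upstream of Fos and Jun, 27 kinases and factors were tested, 14 above 0 and 13 below (median 0.01). In edgeR 1 had an unadjusted p under 0.05 in the direction of higher levels and 1 in that of lower levels, and neither passed the adjustment. Mrtfb, a coactivator of serum response factor, had 87.2, 97.3 and 94.1 CPM in libraries labelled Mll5+/- and 63.1, 45.1 and 46.0 CPM in those labelled WT (log2 fold change 0.85 ± 0.271, SE; unadjusted p = 0.0122 in edgeR). Elk3, an ETS partner of the same factor, had 84.0, 28.8 and 83.8 CPM in libraries labelled Mll5+/- and 102, 141 and 133 CPM in those labelled WT (log2 fold change -0.94 ± 0.405, SE; unadjusted p = 0.0468 in edgeR). Mef2a, the list's most counted gene, had between 999 and 1182 CPM in libraries labelled Mll5+/- and between 1009 and 1311 CPM in those labelled WT.

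The ZFP36 and BTG proteins recruit or belong to the CCR4-NOT deadenylase with its BTG and TOB proteins. The list for these also held other genes, Pan3 among them. Of its 23 tested genes, 12 lay above 0 and 11 below (median 0.04), with 0 under an unadjusted p of 0.05 in edgeR. The lowest was Pan3 (-2.5), which had 1922 CPM in the library labelled WT replicate 1 and between 65.5 and 148 CPM elsewhere. Cnot6, a catalytic subunit, had 36.8, 50.2 and 44.1 CPM in libraries labelled Mll5+/- and 94.2, 59.8 and 53.5 CPM in those labelled WT, without overlap (edgeR unadjusted p = 0.0773). Cnot10 had 100.6, 78.4 and 105 CPM in libraries labelled Mll5+/- and 79.5, 65.8 and 63.2 CPM in those labelled WT.

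Of the cytokine and inflammatory mRNAs that ZFP36 binds, 14 were tested, 8 above 0 and 6 below (median 0.14, also with Il1b at its bound against 3 counts per library). Il1b, an inflammatory cytokine, was the 1 gene with an unadjusted p under 0.05, in the direction of higher levels (edgeR unadjusted p = 0.0223, not passing the adjustment). It had 17, 61 and 20 counts in libraries labelled Mll5+/- and none in those labelled WT. Levels without overlap were found for 1 gene in each direction (4.68% higher and 4.64% lower among all tested genes). The higher one was Il1b. The lower one was Cxcl10, with 1.14, 1.72 and 0 CPM in libraries labelled Mll5+/- and 3.51, 4.96 and 13.8 CPM in those labelled WT. Tnfaip3, an inhibitor of NF-kB, had 10.8, 15.2 and 11.2 CPM in libraries labelled Mll5+/- and 9.03, 37.6 and 35.1 CPM in those labelled WT. Nfkbia, the most counted, had 162, 174 and 235 CPM in libraries labelled Mll5+/- and 119, 159 and 249.5 CPM in those labelled WT.

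Other Kruppel-like factors had 11 tested members, 5 above 0 and 6 below (median -0.02), with 0 under an unadjusted p of 0.05 in edgeR. Klf3, a repressor, had 581, 491 and 413 CPM in libraries labelled Mll5+/- and 678, 657 and 523 CPM in those labelled WT. Sp3 had 314, 361 and 313 CPM in libraries labelled Mll5+/- and 236, 241 and 340.5 CPM in those labelled WT, and Klf13, the most counted, overlapped as well. Of the heat shock genes 7 of 10 lay above 0 (median 0.16) and of the genes raised by dissociation 8 of 17 (median -0.02), with 0 under an unadjusted p of 0.05 in edgeR in both. Hsp90aa1, an inducible chaperone, had 323, 172 and 114 CPM in libraries labelled Mll5+/- and 154, 181 and 171 CPM in those labelled WT. Dnaja1, a co-chaperone, had 320.3, 218 and 222 CPM in libraries labelled Mll5+/- and 369, 327 and 270.1 CPM in those labelled WT. Txnip had 103, 82.8 and 50.5 CPM in libraries labelled Mll5+/- and 38.0, 57.8 and 48.9 CPM in those labelled WT, and Rgs1 at most 10.3 CPM in any library.

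**Figure D5:**
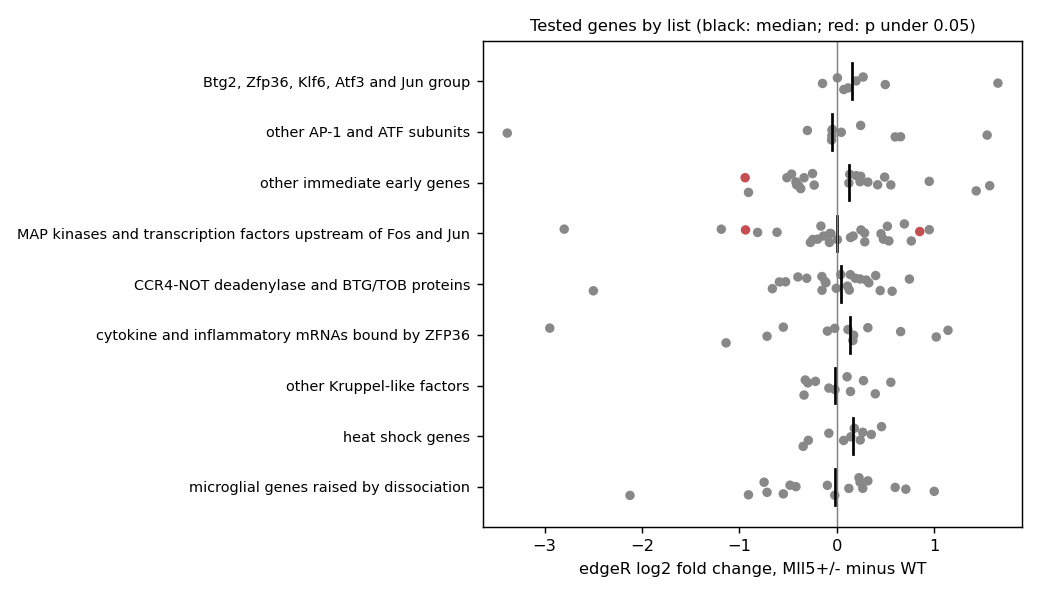
edgeR log2 fold change (x axis, Mll5+/- minus WT) of the tested genes of each list, a point per gene, red for an unadjusted p under 0.05, with list medians as black lines. The medians of all 9 lists lie between -0.04 and 0.16, and 3 of the drawn points are red (Il1b, at 0 counts in WT, is not drawn).

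Markers of other cells that express these genes were read beside them. Border-associated macrophage markers, 6 of 9 listed, summed to between 369 and 692 CPM in libraries labelled Mll5+/- and between 265 and 328 CPM in those labelled WT, carried by Mrc1 and Stab1. The sums in libraries labelled Mll5+/- were 417, 369 and 692 CPM, the highest in replicate 3. The mean log2 deviation of the tested markers gave another order. It was 0.51, 1.47 and -0.42 in libraries labelled Mll5+/- and 0.04, -0.64 and -0.97 in those labelled WT. By that measure replicate 3 was the lowest of the libraries labelled Mll5+/-. Within that genotype Atf3 and Junb were lowest in replicate 3, and Zfp36 and Fos highest. All 5 tested markers of that list had a log2 fold change above 0 (median 0.70), with 0 under an unadjusted p of 0.05 in edgeR. Above 0 were also 4 of 13 microglial, 2 of 7 astrocyte, 1 of 5 oligodendrocyte and 3 of 5 neuron markers. So were 2 of 3 endothelial and mural, 2 of 5 monocyte and neutrophil and 1 of 1 lymphocyte markers. Mrc1 had 80.5, 179 and 189.6 CPM in libraries labelled Mll5+/- and 93.3, 81.4 and 109 CPM in those labelled WT. F13a1 had a count in every library, between 0.885 and 14.6 CPM, while Cd163 was at 0 in 3 libraries, Lyve1 in 2 and Ms4a7 in 3, with at most 5.25, 16.3 and 2.56 CPM. Monocyte and neutrophil markers, 5 of 12 listed, summed to between 225 and 278 CPM in libraries labelled Mll5+/- and between 196 and 256 CPM in those labelled WT, mostly Csf3r, while S100a9 was at 0 in 3 libraries. Endothelial and mural markers, 6 of 12 listed, summed to between 16.96 and 23.3 CPM in libraries labelled Mll5+/- and between 14.5 and 31.7 CPM in those labelled WT. Microglial markers, 13 of 13, summed to between 8212 and 9538 CPM in libraries labelled Mll5+/- and between 10616 and 14983 CPM in those labelled WT. Among them P2ry12 had 1115, 1232 and 1087 CPM in libraries labelled Mll5+/- and 4269, 1366 and 5499 CPM in those labelled WT. Neuron markers, 5 of 12 listed, summed to between 172 and 182 CPM in libraries labelled Mll5+/- and between 177 and 239 CPM in those labelled WT. The part of other cells in the levels of Atf3, Junb and Fos was not tested.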

How the data were processed

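The deposited table holds raw counts by gene symbol, with coordinates on mm39. Sorted cells went into TRIzol, and cDNA was made by SMART-seq and tagged with a transposase, per the labels' protocols. FastQC, STAR, StringTie and DESeq2 are named in the submitters' processing notes. Versions, strand setting and the counting step are not given in those notes. Without strand, reads of a gene and an antisense partner cannot be told apart. No other gene of the table overlapped any of the 9 genes studied.

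Genes were kept by filterByExpr (minimum count 10, minimum total count 15), which left 10832 of 11881. Genotypes were compared by the quasi-likelihood test of edgeR 4.0.16 (TMM, robust fit; limma 3.58.1, R 4.3.3), two-sided, Mll5+/- minus WT, with Benjamini-Hochberg adjustment over all tested genes and a threshold of 0.05. SEs and 95% intervals were derived from each log2 fold change and its F value. P-values measure the spread between 3 mice per genotype. CPM use TMM-scaled totals, and log2 CPM a prior count of 2. Correlations used exact permutation of 6 libraries. The method was tested on simulated data with a spread set far below the fitted one. That test cannot say how small a change was detectable here. DESeq2 1.42.0, limma-voom, 1 surrogate variable (sva 3.50.0), other scalings and filters, and leaving out each library were alternatives. No sample was dropped. The counts carry no molecular identifiers and reads were amplified, so floors cover counting error only.

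The 10 genes and the lists were chosen with earlier results of these data known. Of each list the 2 genes of smallest p and the gene of most counts were to be named, and some are left out of the text. Promoters come from RefSeq (GRCm38.p6) and transcripts from GENCODE M21, both of another build than the counts, and were used for sequences, lengths and names only. The list of microglial genes raised by dissociation shares members with others.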

Additional observations from a re-analysis of the deposited data

How the results depend on the processing

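No paired analysis was possible because the labels give animal numbers and no replicate numbers shared between genotypes. The count of genes past the threshold, 0 in edgeR, was 29 in DESeq2 without the low-count filter, 1 with 1 surrogate variable, and from 0 to 2 when a library was left out. Of 120 alternative log2 fold changes of the 8 genes, 110 kept their direction and their side of the threshold, and 10 reversed. Jun reversed with limma-voom (-0.035), without the low-count filter (-0.0061), without Mll5+/- replicate 2 (-0.12), without WT replicate 1 (-0.16) and without WT replicate 3 (-0.18). Btg2 reversed with 1 surrogate variable (0.039) and without Mll5+/- replicate 3 (0.068), as did Zfp36 without that library (-0.044). Zfp36l1 (-0.033) and Zfp36l2 (-0.014) reversed without WT replicate 2. Over the left-out libraries the log2 fold change ran from -0.30 to 0.068 for Btg2, from -0.044 to 0.39 for Zfp36, from -0.033 to 0.23 for Zfp36l1, from -0.014 to 0.26 for Zfp36l2 and from -0.18 to 0.40 for Jun, and, above 0 throughout, from 0.088 to 0.31 for Klf6, from 0.34 to 0.68 for Junb and from 1.12 to 2.16 for Atf3. The causes were not tested. Genes without overlap between genotypes numbered from 0 to 3 of 8 over the left-out libraries, for which fewer samples make overlap rarer. The count of genes with a log2 fold change above 0 ran from 5 to 7 over the left-out libraries, and that of positive pairs from 12 to 19. Fos was at 0 counts in 4 libraries and Atf3 at 8 counts in WT replicate 3, the deepest library, so counting error bears most on these 2 genes.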
